A study of Anas platyrhynchos with 12 samples.

Results

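The genes described here carry the names of proteins of the mitochondrial ribosome. They were chosen by name alone, as gene models whose symbol begins with MRPL or MRPS followed by a number. The rule found 66 of the 16433 gene models in the table, 40 with an MRPL (large subunit) symbol and 26 with an MRPS (small subunit) symbol. They carry 65 different symbols, since 2 models are named MRPS30. Breast muscle of ducks (Anas platyrhynchos) of an F2 population was compared by RNA sequencing between 6 HB samples, from ducks with a high breast muscle ratio, and 6 LB samples, from ducks with a low one. All ducks were 42 days old, kept under shared breeding conditions with free access to food and water. The labels give no sex, parental line or batch. The study sought genes related to this growth trait, and the comparison asks whether the genes for the mitochondrial translation machinery differ with it.

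Mitochondria hold a small genome whose protein-coding genes all specify subunits of oxidative phosphorylation, the process that makes most ATP in respiring muscle. These messages are translated inside the organelle by the mitoribosome, whose RNA comes from the mitochondrial genome and whose proteins are all encoded in the nucleus and imported. The small subunit binds the mRNA and decodes it, and the large subunit joins the amino acids and is anchored at the inner membrane. Many of its proteins descend from bacterial ribosomal proteins, and many others arose later and are found only in mitochondrial ribosomes. The names do not always follow the structure, as the proteins MRPS30 and MRPS18A sit in the large subunit of the human mitoribosome. MRPS36, also called KGD4, is known in mammals as a subunit of the 2-oxoglutarate dehydrogenase complex. By its name it is counted here among the small subunit symbols.

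Libraries held 33124019 to 42503751 counts in HB and 24090771 to 39718065 counts in LB. The fast fibre genes measured as a check of the tissue summed to 15180 to 19910 FPKM in HB and 13540 to 16580 FPKM in LB, where FPKM are fragments scaled by gene length and by the reads counted in a library. Of the 6 fast fibre symbols, MYLPF and ATP2A1 matched no symbol in the table. Library HB-4 stood apart in its slow fibre sum, which was 23.7 FPKM there and 1212 to 2480 FPKM in the other 11 libraries. That sum followed TNNC1, which ran from 5.555 to 2468 FPKM in HB and from 1186 to 2219 FPKM in LB. The other tested slow fibre genes, TNNI1, CSRP3 and ATP2A2, held at most 21.19 FPKM in any library. Library HB-3 stood apart on chromosome Z, where 557 tested genes had a median log2 level 0.31 below their mean over all libraries, against -0.04 to 0.08 in the others. Values of MRPL2 are also given without HB-3 and HB-4, and those of the members on Z without HB-3. In whole muscle, fewer cells of a type and less RNA per cell cannot be told apart.

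All 66 were among the 12577 genes that passed the filter on low counts, and the lowest count of any member in any library was 31. Their mean level over the 12 libraries had a median of 32.2 FPKM and ran from 2.43 to 176 FPKM. For comparison, the median over the 15209 genes with a count was 3.65 FPKM. The median was 32.5 FPKM over the large subunit symbols and 29.9 FPKM over the small subunit symbols. Members with a bacterial homologue (36 genes) had a median of 36.1 FPKM, and those found only in mitochondria (26 genes) one of 27.0 FPKM. The ranges of both classes overlap almost entirely, from 2.43 to 176 FPKM and from 4.64 to 111 FPKM.

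**Figure D1:**
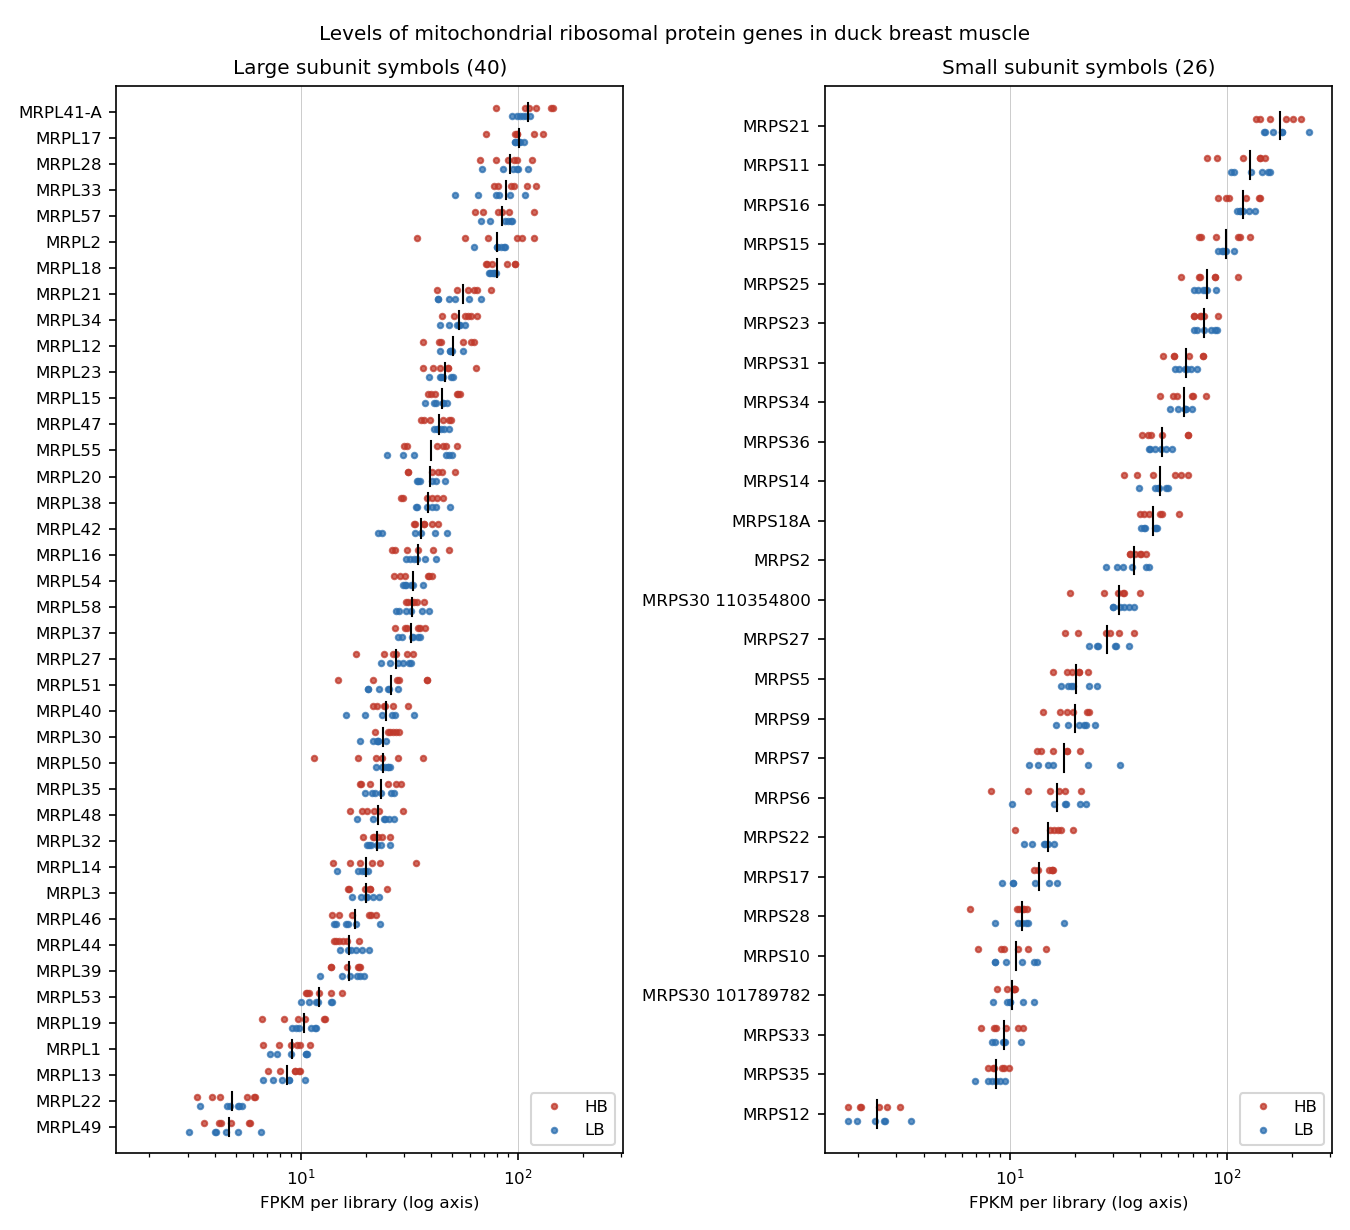
FPKM of each member in each library (log axis), HB points in red above LB points in blue, with a black tick at the mean over 12 libraries; large subunit symbols are on the left and small subunit symbols on the right. Levels run from MRPS12 at 2.43 FPKM to MRPS21 at 176 FPKM, and for every member the HB and LB points overlap.

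At the top of the order stood 3 small subunit proteins that descend from bacterial ones, MRPS21, MRPS11 and MRPS16. MRPS21 had 137 FPKM in the lowest, 173 in the median and 220.4 in the highest HB library, against 149, 172 and 240.0 FPKM in LB. For MRPS11, which lies in the platform of the small subunit, HB libraries held 80.8 to 151 FPKM with a median of 131, and LB libraries 105 to 159 FPKM with a median of 138. MRPS16 spanned 91.5 to 142 FPKM in HB (median 113) and 111 to 136 FPKM in LB (median 117). MRPS11 and MRPS16 did not separate, since their ranges share most of their length.

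The highest large subunit members were MRPL41-A and MRPL17. MRPL41-A, named MRPL41 in the reference gene table and a protein found only in mitochondrial ribosomes, had 79.3, 117 and 146 FPKM in the lowest, median and highest HB library. In LB it had 94.1, 104 and 114 FPKM. MRPL17, the counterpart of bacterial L17, had 71.2, 99.2 and 131 FPKM in HB, against 96.9, 101 and 107 FPKM in LB. For both genes the LB libraries lay inside the HB range, but without HB-3 the lowest HB value of MRPL17 was 97.2 FPKM, above LB-6.

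MRPS12 was the lowest member, although its protein, the counterpart of bacterial S12, sits at the decoding centre of the small subunit. Its levels were 1.80, 2.28 and 3.11 FPKM in HB, against 1.80, 2.51 and 3.51 FPKM in LB. The reference gene table lists this model as LOC101794401 and holds an entry named MRPS12 on another chromosome that is not analysed here. The level given is therefore that of the counted model alone, whose symbol the reference does not share. MRPL49, whose model matched no entry of the reference gene table, followed with 3.56 to 5.83 FPKM in HB (median 4.54) and 3.06 to 6.57 FPKM in LB (median 4.28). MRPL22, whose bacterial counterpart lines the exit tunnel for the growing chain, had 3.33 to 6.17 FPKM in HB (median 4.95) and 3.42 to 5.34 FPKM in LB (median 4.94). For all 3 of these low members the groups overlapped over most of their range.

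Some members low in the order have long gene models, but the lowest, MRPS12 and MRPL49, have short ones of 484 and 365 bases. MRPS35 at 8.62 FPKM and MRPL13 at 8.67 FPKM have implied lengths of 5192 and 3337 bases, where the median member has 917.5 bases and the median gene 2762. MRPL44, MRPL1 and MRPL22 have implied lengths of 5016, 4956 and 3008 bases. A longer model spreads the same reads over more bases, and how far these models carry sequence beyond the mature message was not tested.

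Both gene models named MRPS30 lie side by side on chromosome Z in the reference gene table. The model with gene number 110354800 had 18.9, 32.4 and 40.0 FPKM in the lowest, median and highest HB library, against 29.8, 32.9 and 37.3 FPKM in LB. The other, 101789782, had 8.69, 10.4 and 10.6 FPKM in HB, against 8.40, 10.04 and 12.9 FPKM in LB. Their sequences were not compared, and counting may have divided shared reads among them, so the separate levels are uncertain. MRPS18A held 39.8 to 60.1 FPKM in HB (median 46.8) and 40.3 to 47.7 FPKM in LB (median 44.4). MRPS36 held 40.8 to 66.3 FPKM in HB (median 47.5) and 43.9 to 56.0 FPKM in LB (median 48.2).

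No member separated HB from LB. With the quasi-likelihood test of edgeR and Benjamini-Hochberg adjustment over all 12577 genes, 0 of 66 members had an adjusted p under 0.05, and the share called among all genes was 0%. An unadjusted p under 0.05 was found for 1 of 66 members, MRPL30, against 579 of all tested genes, or 4.6%. DESeq2 also called 0 members, where it called 1 of 14981 genes (0.00668%). Groups whose FPKM did not overlap were found for 0 members and for 12 of all tested genes (0.0954%). No source says whether each sample is a different bird, and the p-values reflect only how much these samples vary.

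The smallest p belonged to MRPL30, a large subunit protein with a bacterial counterpart. It had 26.5, 25.6, 27.6, 22.0, 28.4 and 25.3 FPKM in HB-1 to HB-6. In LB-1 to LB-6 it had 21.4, 22.8, 22.7, 18.8, 24.6 and 22.5 FPKM. Of the HB libraries, 5 lay above the LB mean of 22.1 FPKM, HB-4 lay just below it, and the groups overlapped. The log2 difference in edgeR was 0.27 ± 0.10 (SE), with an unadjusted p of 0.0140 and an adjusted p of 0.977. Among all genes, 2.34% had an unadjusted p under 0.05 with higher values in HB and 2.27% with lower values. The authors' deposited table gives MRPL30 a p of 0.00692 and an adjusted p of 0.727.

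MRPS17 and MRPL33 came next among the members with higher means in HB. MRPS17, the counterpart of a bacterial protein that binds the ribosomal RNA of the small subunit early in assembly, had 12.9 to 15.8 FPKM in HB (median 15.4) and 9.18 to 16.5 FPKM in LB (median 11.8). All 6 HB libraries exceeded the LB mean of 12.4 FPKM, but LB-6 lay above the HB range at 16.5 FPKM, and LB-4 and LB-5 lay within it. Its log2 difference was 0.29 ± 0.14 (SE), with an adjusted p of 0.977 in edgeR. MRPL33 had 77.8 to 122 FPKM in HB (median 94.7) and 51.7 to 108 FPKM in LB (median 80.5), a log2 difference of 0.33 ± 0.16 (SE), the largest of any member. Its lowest library was LB-4 and its highest HB-1. MRPS22, MRPL18 and MRPL41-A followed with log2 differences of 0.22, 0.17 and 0.21, each with an adjusted p of 0.977. MRPS22 is found only in mitochondrial ribosomes, and changes in the human gene cause a defect of oxidative phosphorylation.

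Differences in the other direction were smaller against their error. MRPL44, a large subunit protein related to ribonuclease III, had 14.2, 15.4 and 18.6 FPKM in the lowest, median and highest HB library and 15.1, 17.5 and 20.6 FPKM in LB. Its log2 difference was -0.13 ± 0.10 (SE), with an unadjusted p of 0.212 in edgeR, and 1 of 6 HB libraries exceeded the LB mean. MRPS28 had 6.54, 11.3 and 11.99 FPKM in HB, against 8.54, 11.6 and 17.9 FPKM in LB. Its log2 difference was -0.16 ± 0.18. In MRPS28 a single library held each end of the range, HB-5 the lowest and LB-2 the highest. MRPS6, MRPS9, MRPS11 and MRPS7 had log2 differences of -0.16, -0.07, -0.12 and -0.12, each smaller than its SE of 0.20, 0.12, 0.19 and 0.23. MRPS7, which binds RNA in the head of the small subunit, had its highest value in LB-5, 32.1 FPKM, where the other LB libraries held 12.3 to 23.0 FPKM. Without LB-5 its log2 difference was 0.08, and a rise was bound to follow from leaving out its highest LB library.

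Most members had slightly higher fitted values in HB, and how many depended on the scaling. In edgeR with TMM scaling, 46 of 66 members (69.7%) had a log2 difference above 0, against 49.9% of all tested genes, with a median of 0.06 over the members and -0.0003 over all genes. Scaled by library totals alone, the count was 39 of 66 (59.1%) against 40.5% of all genes, and with limma on log2(FPKM + 1) it was 34 of 66 (51.5%) against 39.2%. Without HB-1 and HB-2, the libraries highest for the members, 29 of 66 (43.9%) were above 0, against 49.9% of all genes. Leaving out the highest HB libraries, with no LB library left out, lowers the HB values by construction, so a lower count was bound to follow. The fall shows only how far the count rested on these libraries. With all libraries, the share was above that of all genes in each of these 3 fits. The limma fit also scales by library totals, through the FPKM.

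The large subunit had the higher share of positive differences. With TMM scaling 32 of 40 large subunit members were above 0, with a median of 0.08, and 14 of 26 small subunit members, with a median of 0.02, where 49.9% of all genes were above 0. Scaled by library totals the counts were 28 of 40 and 11 of 26, where 40.5% of all genes were above 0, and the small subunit median was -0.02, the other side of 0. Without HB-1 and HB-2 they were 20 of 40, with a median of -0.001, and 9 of 26, with a median of -0.08. Such a fall was bound to follow from leaving out the highest HB libraries. The mean log2 level of large minus small subunit members averaged 0.03 ± 0.03 in HB and -0.03 ± 0.04 in LB (SD, n = 6 each), a difference of 0.05. HB values ran from -0.01 in HB-6 to 0.08 in HB-2, and LB values from -0.08 in LB-4 to 0.01 in LB-3, so the groups overlapped. In summed FPKM, the large subunit held 1.33 ± 0.04 times the small subunit in HB and 1.25 ± 0.05 times in LB (SD, n = 6 each). The ratio ran from 1.29 to 1.40 in HB and from 1.20 to 1.35 in LB, so the groups overlapped here too. These ratios were not tested, because the gene family was picked with results of these data known, although the name rule itself used no expression value. Counting MRPS30 and MRPS18A to the large subunit left a log2 difference of 0.05 between HB and LB. Over 24 alternative runs, among them that without HB-1 and HB-2, it was 0.04 to 0.06. These runs share most of their libraries.

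**Figure D2:**
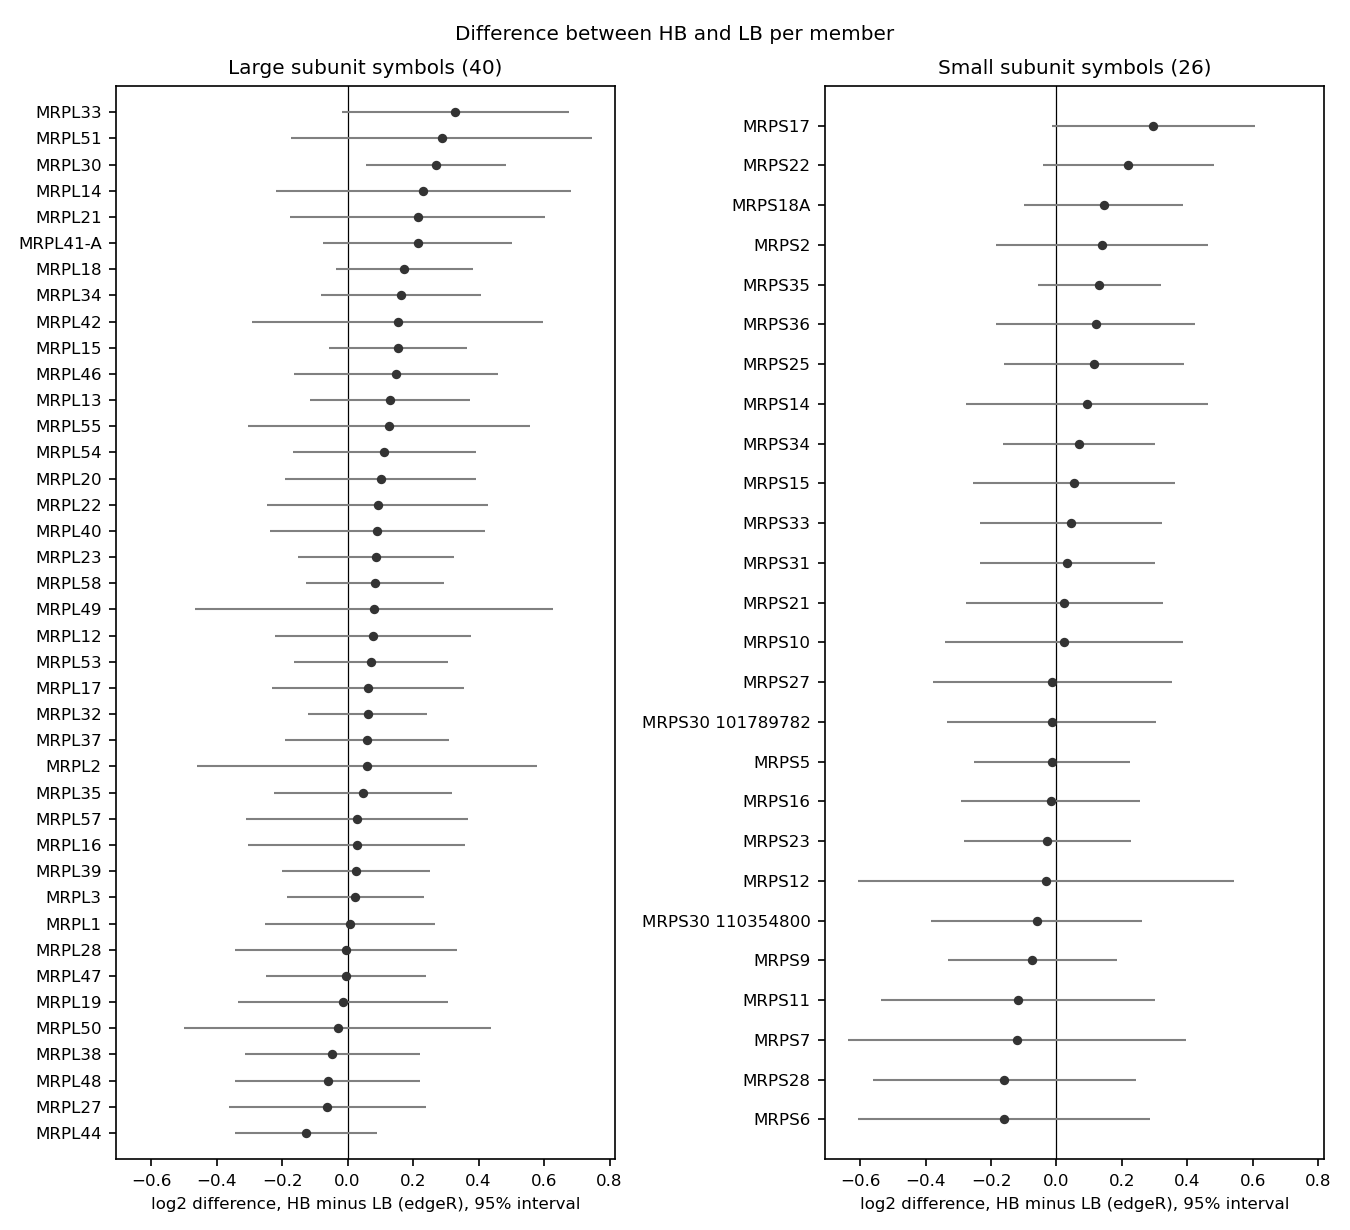
Log2 difference of each member, HB minus LB, from edgeR with its 95% interval, ordered within the large subunit symbols (left) and the small subunit symbols (right). All intervals but that of MRPL30 include 0, and 32 of 40 points on the left and 14 of 26 on the right lie above 0.

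The HB libraries differed more among themselves than the LB libraries did. The members together took 0.305, 0.299 and 0.281% of the counts in HB-1, HB-2 and HB-3, and 0.233, 0.234 and 0.239% in HB-4 to HB-6. In LB-1 to LB-6 they took 0.254, 0.267, 0.267, 0.258, 0.267 and 0.260%. The mean shares were close, 0.265 ± 0.034% in HB and 0.262 ± 0.006% in LB (SD, n = 6 each), and every LB library lay in the gap between the higher and the lower HB libraries. By FPKM, the highest and the lowest of the 12 libraries were both HB for 38 of 66 members (57.6%), against 27.1% of all tested genes. With TMM scaling this held for 30 members (45.5%), against 29.2%.

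**Figure D3:**
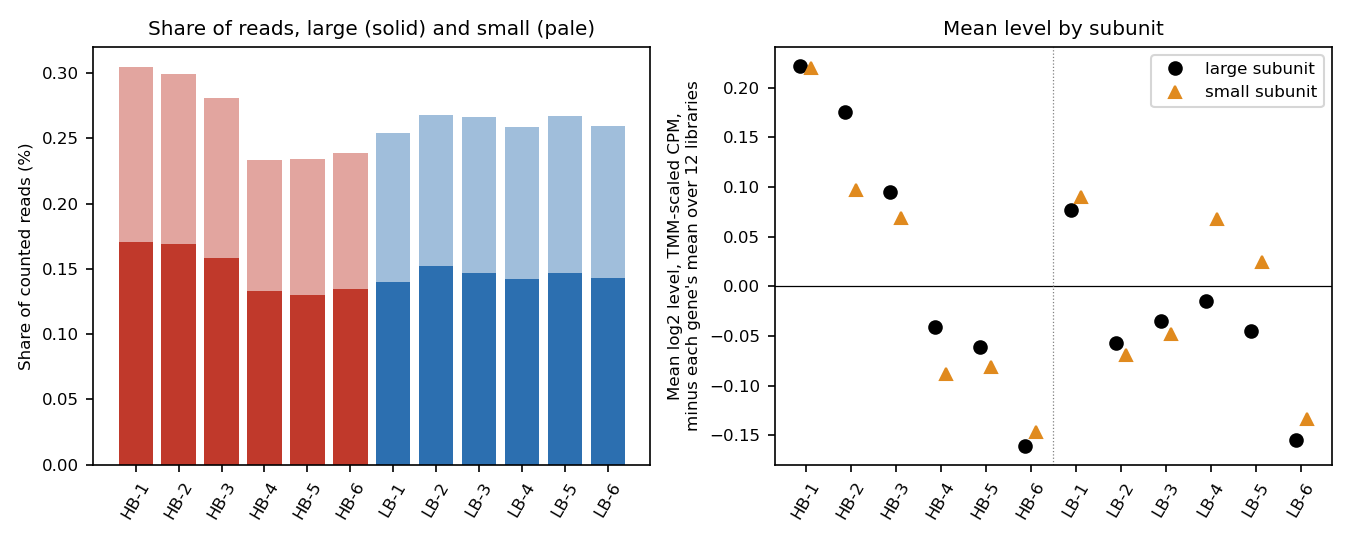
Left, share of counted reads taken by large (solid) and small (pale) subunit members in each library, HB in red and LB in blue, with bars starting at 0. Right, mean log2 level by subunit with TMM scaling, centred on the mean over 12 libraries, where HB-1 is highest at 0.22 and HB-6 and LB-6 are lowest, near -0.15.

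How tight LB was depended on the scaling, and which scaling is nearer the truth was not tested. With TMM scaling, the mean log2 level of the members was 0.22, 0.14, 0.08, -0.06, -0.07 and -0.15 in HB-1 to HB-6. In LB-1 to LB-6 it was 0.08, -0.06, -0.04, 0.02, -0.02 and -0.15. The SD was 0.14 in HB and 0.08 in LB with TMM scaling, and 0.17 in HB and 0.04 in LB with library totals. LB-6 thus lay among the lowest libraries on the first scale and near the middle on the second. Over single members, the SD of the log2 level was larger in HB for 48 of 66 (72.7%), against 62.2% of all tested genes. The means of both subunits lay on the same side of 0 in 10 of 12 libraries.

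HB-1 was the highest library for 22 members by FPKM and for 29 with TMM scaling. The lowest library depended on the scaling: by FPKM it was HB-5 for 18 members, HB-4 for 15 and LB-6 for 2, and with TMM scaling HB-5 for 7, HB-4 for 12 and LB-6 for 15. MRPL2, which lies at the site of peptide bond formation, showed the widest range, with 34.3 FPKM in HB-4 and 120 in HB-3, a ratio of 3.49. Its LB libraries held 62.7 to 87.5 FPKM, and without HB-3 and HB-4 the ratio was 1.84. These were its own highest and lowest libraries, so a smaller ratio was bound to follow. MRPL51 and MRPL50, both found only in mitochondrial ribosomes, also had a large SD within groups. MRPL51 ran from 14.8 FPKM in HB-6 to 38.3 FPKM in HB-1 and HB-3, and from 20.3 to 28.1 FPKM in LB. For MRPL50 the SD of the log2 level in HB was 0.56 with HB-3 and 0.34 without it, against 0.15 in LB. HB-3 was its lowest library, so leaving it out narrows the HB range by construction. The median ratio of the highest to the lowest library was 1.74 over the members.

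The members that varied least had narrow ranges in both groups. MRPL32, whose maturation by a mitochondrial protease is known in yeast and mouse to precede assembly of the ribosome, had 19.4 to 25.9 FPKM in HB (median 22.2) and 20.1 to 25.7 FPKM in LB (median 21.7). MRPS35 had 7.93 to 9.87 FPKM in HB (median 8.81) and 6.94 to 9.48 FPKM in LB (median 8.44). MRPL58, also called ICT1, a peptidyl-tRNA hydrolase built into the large subunit, had 30.5 to 37.0 FPKM in HB (median 32.8) and 27.4 to 39.0 FPKM in LB (median 31.3). The biological coefficient of variation in edgeR had a median of 18.7% over the members, against 23.6% over all tested genes and 18.4% over genes of similar level. In edgeR the value of each gene is drawn toward that of genes of similar level. The closeness of 18.7% to 18.4% is thus partly built in, and a spread without this step was not compared.

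Markers of other cell types also differed among the HB libraries. The 4 adipocyte markers summed to 300.1 to 632 FPKM in HB and to 349 to 444 FPKM in LB. The 6 macrophage symbols, matched by 37 gene models, summed to 65.7 to 158 FPKM in HB and to 69.7 to 142 FPKM in LB. The 5 fibroblast symbols found of 6 summed to 551 to 1013 FPKM in HB and 641 to 1363 FPKM in LB, and the 5 endothelial ones to 208 to 545 FPKM in HB and 450 to 615 FPKM in LB. Red cell genes, 2 of 6 symbols, summed to 2582 to 7259 FPKM in HB and 3491 to 5611 FPKM in LB. The 2 satellite cell markers summed to 17.1 to 36.1 FPKM in HB and 18.2 to 29.2 FPKM in LB. No marker found in the table was at 0 in all libraries, and the part of these cell types in the members' values was not tested. HB-4, lowest for 15 members by FPKM, is also the library with the low slow fibre sum of 23.7 FPKM, a sum that follows TNNC1. HB-5, lowest for 18 members by FPKM, had a slow fibre sum of 1799 FPKM. LB-6, lowest for 15 members with TMM scaling, had one of 1212 FPKM. The endothelial sum was lowest in HB-4 and HB-5, at 208 and 297 FPKM, against at least 429.7 FPKM in the other libraries. In LB-6 it was 450 FPKM. The adipocyte sum was highest in HB-4 and HB-6, at 632 and 600 FPKM, but was 312 FPKM in HB-5 and 444 FPKM in LB-6. A link between these values was not tested. Without HB-4, 50 of 66 members had a positive log2 difference, and 53 had one without HB-5 or without HB-6. These libraries are low for the members, so leaving one out raises the HB values by construction.

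Lists of related genes are set beside the members library by library. The 67 tested gene models for nuclear subunits of oxidative phosphorylation, the complexes that the mitoribosome's products join, had mean log2 levels of 0.36, 0.29, 0.10, -0.02, -0.18 and -0.16 in HB-1 to HB-6. In LB-1 to LB-6 they had 0.04, -0.15, 0.02, 0.15, -0.11 and -0.35. HB-1 and HB-2 were the highest libraries for this list and for the members, while LB-6 was lowest for the list and HB-6 for the members. Of the 67 models, 0 were called and 62 had a positive log2 difference, with a median of 0.14, against 57 with library totals. The count was 33 without HB-1 and HB-2, but it was bound to fall, since these libraries were the highest for this list. An unadjusted p under 0.05 was found for 3 of the 67 models, all with higher values in HB. Among all tested genes 4.6% had one, 2.34% with higher values in HB. The models were COX6B1, NDUFA2 and 1 of 2 named ATP5F1A, each with an adjusted p of 0.977 in edgeR. That ATP5F1A model, 113841028, averaged 177 FPKM over HB and 133 over LB libraries, with a log2 difference of 0.44 ± 0.19 (SE). The more abundant model, 101795844, averaged 1811 FPKM over HB and 1827 over LB libraries, with a log2 difference of 0.02 ± 0.17. COX6B1, part of respiratory complex IV, averaged 70.5 ± 16.1 FPKM over the HB libraries and 48.2 ± 12.4 FPKM over the LB libraries (SD, n = 6 each).

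**Figure D4:**
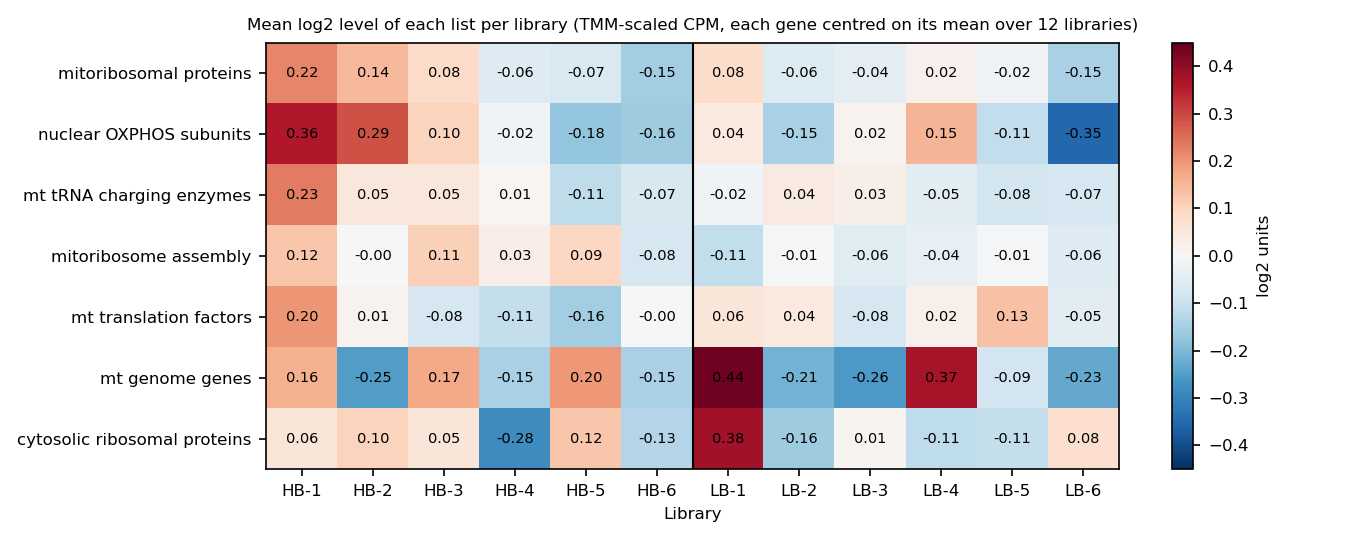
Mean log2 level of each gene list in each library with TMM scaling, each gene centred on its mean over 12 libraries, with HB libraries left of the line and LB libraries right of it. The members and the nuclear OXPHOS subunits are both highest in HB-1, at 0.22 and 0.36, while cytosolic ribosomal proteins are highest in LB-1, at 0.38.

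The factors that build and serve the mitoribosome were counted in the same fit, and 0 of them were called. Of 22 assembly factors, 17 had a positive log2 difference with TMM scaling and 14 with library totals, against 49.9% and 40.5% of all tested genes. An unadjusted p under 0.05 was found for 2 of the 22, where 4.6% of all tested genes had one. These were GTPBP10, a GTPase that matures the large subunit, with a log2 difference of 0.70 ± 0.19 (SE), and ERAL1, a chaperone of the small subunit's RNA, with 0.26 ± 0.09, each with an adjusted p of 0.977 in edgeR. GTPBP10 averaged 15.0 ± 4.53 FPKM over HB libraries, against 9.53 ± 1.79 over LB libraries, and ERAL1 16.8 ± 0.98 FPKM over HB, against 14.5 ± 2.31 over LB (SD, n = 6 each). Positive differences were found for 5 of 13 translation factors and 12 of 20 gene models for enzymes that charge mitochondrial tRNAs, with 0 of either under an unadjusted p of 0.05. The charging list holds GATB, GATC and QRSL1, subunits of the amidotransferase that completes glutaminyl-tRNA, and NARS2 as 2 models, beside other aminoacyl-tRNA synthetases. The transcription and RNA processing list had 15 of 25 above 0, and its PNPT1, an RNA exonuclease of mitochondria, had a log2 difference of -0.20 ± 0.08 and an adjusted p of 0.977. Of 13 regulators of mitochondrial biogenesis, 11 were positive with TMM scaling and 7 with library totals.

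Gene models of the mitochondrial genome, whose messages the mitoribosome translates, were positive for 11 of 21. Their mean log2 level ran from -0.25 to 0.20 in HB and from -0.26 to 0.44 in LB, highest in LB-1 and LB-4, where the members stood at 0.08 and 0.02. MT-ATP8, a subunit of ATP synthase, averaged 4400 ± 512 FPKM over HB libraries and 5832 ± 690 FPKM over LB libraries (SD, n = 6 each), a log2 difference of -0.38 ± 0.12 (SE) with an adjusted p of 0.977 in edgeR. MT-ATP6 went the other way, with 547 ± 206 FPKM over HB libraries and 422 ± 54.9 FPKM over LB libraries (SD, n = 6 each). Its log2 difference was 0.41 ± 0.24 (SE), also with an adjusted p of 0.977 in edgeR. How reads were divided between these models was not tested. Several models share a gene here, so the list counts some genes more than once. The ribosomal proteins of the cytosol, which translate nuclear messages, were positive for 16 of 69 with TMM scaling, with a median of -0.05. With library totals the count was 10. Of all tested genes, 49.9% and 40.5% were positive on these scales. The mean log2 level of this list ran from -0.28 in HB-4 to 0.12 in HB-5, and in LB from -0.16 in LB-2 to 0.38 in LB-1. An unadjusted p under 0.05 was found for 1 of the 69, where 4.6% of all tested genes had one. This was RPL3L, with a log2 difference of 0.47 ± 0.17 (SE) and an adjusted p of 0.977 in edgeR. RPL3 had -0.22 ± 0.14. The list also holds RPL7L1 and RPL22L1. Mitoribosomal proteins under other symbols, AURKAIP1, PTCD3 and CHCHD1, had log2 differences of 0.21, -0.13 and 0.004, and 0 of 3 had an unadjusted p under 0.05.

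The members are spread over 20 chromosomes of the reference gene table, 5 of them on Z. In HB-3, 4 of these 5 had their lowest value of all libraries. MRPL17 had 71.2 FPKM in HB-3, against 96.9 to 131 FPKM in the other 11 libraries, and MRPL50 had 11.5 FPKM against 18.4 to 36.5. MRPS27 had 18.0 FPKM there, against at least 20.7, and the MRPS30 model 110354800 had 18.9, against at least 27.3. The other MRPS30 model, 101789782, had 8.69 FPKM in HB-3 and its lowest value in LB-3, 8.40 FPKM.

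**Figure D5:**
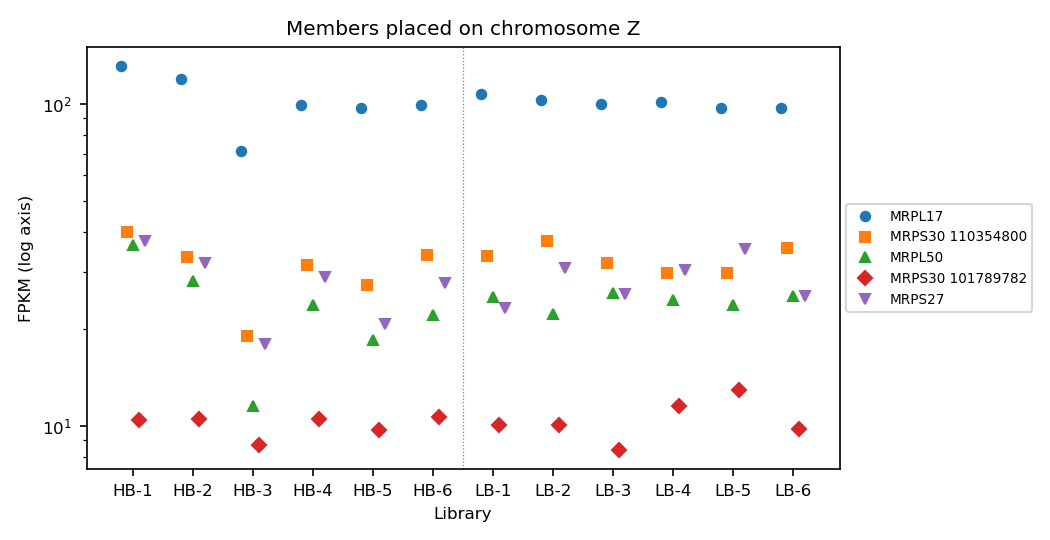
FPKM (log axis) of the 5 members placed on chromosome Z in each library, HB libraries left of the dotted line and LB libraries right of it. MRPL17, MRPL50, MRPS27 and MRPS30 110354800 are lowest in HB-3, at 71.2, 11.5, 18.0 and 18.9 FPKM.

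With TMM scaling, the mean log2 level of the Z members was -0.61 in HB-3, while that of the members elsewhere was 0.15. The 557 tested genes of Z had a median of -0.31 in that library, and genes placed elsewhere one of 0.02. MRPL50 had a log2 difference between HB and LB of -0.03 ± 0.21 (SE) with HB-3 and 0.11 ± 0.15 without it. For MRPS30 110354800 it was -0.06 ± 0.14 with HB-3 and 0.05 ± 0.10 without it, and for MRPS27 -0.01 ± 0.16 and 0.09 ± 0.14. MRPS30 101789782 had -0.01 ± 0.14 with HB-3 and 0.03 ± 0.15 without it, and MRPL17 0.06 ± 0.13 and 0.15 ± 0.11. The signs of MRPL50, MRPS27 and both MRPS30 models thus turned with a single library. HB-3 was the lowest HB library for each of the 5, so leaving it out was bound to raise these differences. With HB-3, each of the 5 differences was smaller than its SE. Without HB-3, each of the 5 had an adjusted p of at least 0.980 in edgeR.

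MRPS11 and MRPL46 are neighbours on chromosome 11 in the reference gene table, with 0 genes between them. MRPS11 averaged 121 FPKM over HB and 134 over LB libraries, and its log2 difference was -0.12 ± 0.19 (SE). MRPL46, a large subunit protein found only in mitochondria, averaged 18.3 FPKM over HB and 17.1 over LB libraries. Its log2 difference was 0.15 ± 0.14. The adjacent genes thus differed in level and had fitted differences of opposite sign, both near their error.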

How the data were processed

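RNA of 12 samples was sequenced. Per the labels' protocols, muscle was flash frozen, RNA extracted with Trizol and the library prepared with a TruSeq kit. Per the submitters' processing notes, the tools were fastp 0.18.0, HISAT2, StringTie 1.3.1 and DESeq2. The build, annotation and read counter were not given in the sources used here. Unnormalized counts per gene model and library were deposited as whole numbers. Per the file headers, the authors added the mean FPKM of each group, a log2 fold change, a p-value and an adjusted value. The column names give a group and a number that ties no library to one sample. A further 12 columns, named as FPKM per library, were not used, and the FPKM derived here were not compared with them.

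FPKM per library were derived here by dividing counts by the library total and by a gene length, itself back-calculated from the deposited group mean FPKM. For members, the length differed by at most 0.029% between the HB and the LB mean. Genes were tested with edgeR 4.0.16 in R 4.3.3 (TMM, filterByExpr, Benjamini-Hochberg at 0.05) on all genes, with SEs from the F value. The procedure was tested on simulated data. Alternatives used DESeq2 1.42.0, limma 3.58.1 (pseudocounts 1 and 0.1), other scalings and filters, and fewer libraries. The named genes were the 5 highest and 5 lowest by FPKM, the 6 smallest p per direction, the 4 largest and 4 smallest within-group SDs, shared symbols, MRPS30 and MRPS18A. MRPL1, MRPL46, MRPS27 and MRPS36 were added after their values were seen, and so were some list genes, among them MT-ATP6. The gene family and the lists were chosen with earlier results of these data known.

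Symbols and chromosomes come from a RefSeq gene table (Pekin duck). By gene number, 63 of 66 members matched, 58 under the same symbol. In the reference table, 11 further MRPL or MRPS symbols are not analysed here. The file describes 38 members by a protein of another species. Promoter and protein sequences were not used here.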

Additional observations from a re-analysis of the deposited data

Results flagged for a closer look

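Of 68 sets of 6 libraries examined for a single distant library, 4 had one, where chance alone gives about 1 in 20. MRPS28 was low in HB-5, at 6.54 FPKM, where the other HB libraries held 10.8 to 11.99 FPKM. MRPS21 was high in LB-6, at 240 FPKM, with the other LB libraries at 149 to 181 FPKM. MRPL2 was low in LB-1, at 62.7 FPKM, against 79.9 to 87.5 FPKM in the other LB libraries. The ratio of summed large to summed small subunit FPKM was high in LB-2, at 1.35, where the other LB libraries held 1.20 to 1.25.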

How the results depend on the processing

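No paired analysis was possible because the columns of both groups are numbered 1 to 6 but tie no library to a sample, and nothing in the labels ties a number to a batch, family or bird. The count of 0 members called held under each alternative run. The 1 member with an unadjusted p under 0.05 became 3 with DESeq2, 3 with RLE scaling and 2 without HB-3 and HB-4, and 1 to 5 when a single library was left out. It was 2 without HB-2, LB-1, LB-3, LB-4, LB-5 or LB-6 in turn, 3 without HB-5, 4 without HB-4 and 5 without HB-6. The 46 members with a positive difference became 29 without HB-1 and HB-2. Leaving out the highest HB libraries was bound to lower this count, and why they were high was not tested. The log2 difference of MRPS9 was 0.0118 without HB-3 and HB-4, and that of MRPS7 ran from -0.228 to 0.0842 over single libraries left out, positive without LB-5. Leaving out pairs of libraries, members on Z or HB-3 and HB-4 for single members, moving MRPS30 and MRPS18A, and the scaling of levels by TMM were chosen after seeing the data. Of 264 recomputed log2 differences of named members 262 kept their direction. Of 28 named members, the mean FPKM was also recomputed without each library, which by construction moves a mean over 12 little.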
